A study of Mus musculus with 20 samples.

Results

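The genes described here encode axon guidance cues and their receptors, that is, Slit and Robo proteins, semaphorins and plexins, Eph receptors and ephrins, and netrins and Unc5 receptors. They were measured in cultured mouse nephron progenitor cells (NPCs), with and without knockout of the catenins or of cadherins. A gene was taken when its identifier was paired, in any of the 7 deposited comparison tables, with a symbol beginning Sema, Plxn, Nrp, Epha, Ephb, Efna, Efnb, Robo, Slit, Ntn or Unc5, and when its normalized count averaged at least 10 over the 20 libraries. Of 31130 identifiers, 16691 reached that mean, 3939 of these had a symbol, and 17 were guidance genes, with no neuropilin and no ephrin-A among them. The lowest mean inside the limit was 15.1 for Ntn3, and the only gene outside it was Slitrk6, a member of a separate family, at 4.79.

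Symbols exist only for genes listed in one of those tables, which hold genes filtered on p-value and fold change, so the 17 genes were selected on these data. The table of CTRL in low against high CHIR supplied 14 of them, which are Slit2, Robo1, Robo2, Sema3b, Sema4g, Sema5b, Sema6a, Plxna2, Plxna4, Plxnb1, Epha4, Ephb6, Efnb1 and Unc5d. Efnb2 and Plxnb2 came from QCKO against CTRL in high CHIR, and Ntn3 from α-catenin KO against CTRL in high CHIR, in tables filtered on the unadjusted p-value. Differences in the comparison that supplied a gene are therefore given as descriptions, and tests compare only the means of libraries that the choice did not use, although the fit takes its estimate of spread from the CTRL libraries as well. Guidance genes that did not enter those tables carry no symbol here and were not analysed.

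Guidance cues are secreted or membrane-bound proteins that attract or repel migrating cells and growing axons through receptors that act on the cytoskeleton. Slit proteins signal through Robo receptors, semaphorins mainly through plexins, ephrins through Eph receptor kinases, and netrins through receptors that include the Unc5 family. Eph receptors and ephrins are both membrane-bound and are known for sorting cells into separate groups and for forming tissue boundaries. In the developing kidney, Slit2 and Robo2 are known for limiting where the ureteric bud grows out of the nephric duct.

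NPCs were taken from kidneys of mouse embryos at embryonic day 16.5 that carried the Cas9-eGFP transgene, driven from the ROSA26 locus by a ubiquitous promoter. All groups carried Cas9-eGFP and received sgRNA and mCherry mRNA, and mCherry+ cells were sorted, which marks transfection and not editing of the target. CTRL cells received sgRNA against GFP, β-catenin KO cells against Ctnnb1, α-catenin KO cells against Ctnna1, and quadruple cadherin KO (QCKO) cells against Cdh2, Cdh3, Cdh4 and Cdh11. After 48 h, cells were kept in low (1.25 µM) or high (5 µM) CHIR, an inhibitor of the kinase GSK3β that stabilises β-catenin and stands in for an inductive Wnt signal. Each CHIR condition held 3 CTRL, 3 β-catenin KO, 2 α-catenin KO (replicates 1 and 3) and 2 QCKO (replicates 2 and 3) libraries. Replicate numbers follow the date in the sample label, so that equal numbers share a date. The labels do not say whether the dates mark separate cultures or animals, so the p-values measure the spread between these libraries.

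The libraries held 18124772 to 28472412 recovered reads, with a median of 21449823. After scaling, CTRL high CHIR replicate 2 still summed to 28329411 normalized counts, against 20081901 to 23674964 in the other 19 libraries. The 7 of 8 nephron progenitor markers that had an identifier summed to between 13833 and 24209 in low CHIR. In high CHIR that sum was 1132 to 2262 in CTRL, α-catenin KO and QCKO but 7581 to 15272 in β-catenin KO. Wnt4, a gene switched on when progenitors are induced, stood at 30.1, 831 and 634 in the 3 β-catenin KO libraries in low CHIR and at 41.1 to 123 in the other low CHIR libraries, so that replicates 2 and 3 of that group stand apart. Ctnna1 was at 3564 to 3790 in α-catenin KO and at 5817 to 11092 elsewhere. Cdh11 was lower in QCKO than in CTRL in low CHIR (2519 and 1818 against 3594 to 5112) and in high CHIR (1005 and 589 against 1883 to 2092), whereas in high CHIR the QCKO values of Cdh2 and Cdh3 lay inside the CTRL range and those of Cdh4, at 10276 and 6666, on either side of it (7647 to 8840). These values are RNA levels and do not measure protein. By staining, the paper reported removal of all detectable Cdh2 and Cdh11 protein and of most Cdh3 and Cdh4, with similar efficiency for combined sgRNAs. Ctnnb1 has no identifier pairing and was not analysed here, so the β-catenin KO label was not checked at its target.

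Markers of other cells carry an identifier here only where a deposited comparison lists them, so those summed below were partly selected for a difference. The 4 of 10 ureteric epithelium markers with an identifier (Gata3, Hoxb7, Krt8 and Wnt11) summed to 279 to 851 in low CHIR and in high CHIR to 841 to 1007 in CTRL, 1199 to 1988 in α-catenin KO, 1699 to 1859 in QCKO and 537 to 1027 in the β-catenin KO libraries, so that α-catenin KO and QCKO lay above the other groups. The 2 of 10 stromal markers (Meis1 and Tcf21) summed to 3875 to 8324 in low CHIR and to 1166 to 2780 in high CHIR. The 2 of 8 endothelial markers (Plvap and Tek) summed to 266 to 453 in low CHIR and to 95.1 to 431 in high CHIR, and Elavl4, the 1 neuronal marker of 8 with an identifier, stood at 530 to 1187 and at 344 to 714. No leukocyte marker of 8 had an identifier. The part of these markers in the results below was not tested. In such sorted bulk samples, fewer cells of a type and less RNA per cell cannot be told apart.

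The sequence just before a RefSeq transcript start is shown for the ligand Slit2, the receptors Robo1 and Robo2, the ephrin Efnb1, whose response differed between knockouts, and the plexin Plxnb1, the only one that held the motif searched. RefSeq (build GRCm38.p6) gave 16 such windows for 13 of the 17 genes. The windows lie at chr5:47982905-47983154 on the plus strand for Slit2, chr16:72662899-72663148 on the plus strand for Robo1, chr16:75447294-75447543 on the minus strand for the most upstream of 3 starts of Robo2, chrX:99135811-99136060 on the plus strand for Efnb1 and chr9:109095186-109095455 on the plus strand for Plxnb1. The Efnb1 window lies at the outer end of the gene's RefSeq span, whereas the starts used for Slit2, Robo2 and Plxnb1 lie inside the span and that of Robo1 far inside it. Each window shows the 250 bases before its start, and the Plxnb1 window also the 20 bases after it. Capitals mark the motif.
Slit2: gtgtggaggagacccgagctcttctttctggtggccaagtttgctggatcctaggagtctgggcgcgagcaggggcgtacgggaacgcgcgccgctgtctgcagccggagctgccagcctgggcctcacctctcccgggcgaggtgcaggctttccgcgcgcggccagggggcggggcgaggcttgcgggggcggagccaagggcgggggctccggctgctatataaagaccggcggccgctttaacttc
Robo1: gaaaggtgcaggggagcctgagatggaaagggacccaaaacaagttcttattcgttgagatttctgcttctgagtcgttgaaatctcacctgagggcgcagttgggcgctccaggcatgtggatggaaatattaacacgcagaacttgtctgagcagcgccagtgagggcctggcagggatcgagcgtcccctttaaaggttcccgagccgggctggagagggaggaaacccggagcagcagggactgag
Robo2: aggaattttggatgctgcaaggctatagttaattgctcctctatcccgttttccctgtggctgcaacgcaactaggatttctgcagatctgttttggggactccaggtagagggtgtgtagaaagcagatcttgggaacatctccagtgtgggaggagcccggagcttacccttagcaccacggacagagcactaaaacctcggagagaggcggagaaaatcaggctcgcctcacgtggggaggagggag
Efnb1: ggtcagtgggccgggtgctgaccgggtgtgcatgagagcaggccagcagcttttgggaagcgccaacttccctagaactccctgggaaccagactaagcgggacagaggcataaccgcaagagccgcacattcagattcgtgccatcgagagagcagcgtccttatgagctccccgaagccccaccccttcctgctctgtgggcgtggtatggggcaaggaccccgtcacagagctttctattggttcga
Plxnb1: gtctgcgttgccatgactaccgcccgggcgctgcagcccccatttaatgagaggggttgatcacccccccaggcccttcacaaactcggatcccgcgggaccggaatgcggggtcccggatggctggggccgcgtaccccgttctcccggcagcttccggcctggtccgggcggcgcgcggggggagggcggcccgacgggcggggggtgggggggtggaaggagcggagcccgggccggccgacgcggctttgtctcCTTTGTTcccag

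The motif was that of the Tcf and Lef factors, the DNA-binding partners of β-catenin, searched as CTTTGAT or CTTTGTT on either strand in the 250 bases before and 50 bases after each start. It occurred in 1 of the 16 windows (6.25%), as CTTTGTT beginning at base 9 of Plxnb1 counted from the start, and in 9.33% of all 32851 RefSeq windows. CTTTGAT occurred in 0 of the 16 windows and in 3.73% of all windows. The other windows, those of Slit2, Robo1, Robo2 and Efnb1 included, hold neither spelling in these letters.

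Guidance genes moved in both directions with CHIR in the α-catenin KO and QCKO libraries, together called the adhesion KOs. Slit2, Robo1, Epha4, Sema5b, Sema6a and Plxnb1 rose, whereas Robo2, Plxna4, Plxna2, Sema4g, Ephb6 and Efnb1 fell. The response of β-catenin KO differed from this for Robo2, which was lower by less, and for Efnb1, which was higher in every high CHIR library. Both differences of response passed the test, but each call was lost in some fits without 1 library. The first question is whether the CHIR response seen in CTRL was present in the adhesion KOs, whose libraries took no part in choosing 14 of the genes, although they share dates with the CTRL libraries. Pooling the responses of α-catenin KO and QCKO, 12 of 13 genes passed, 6 higher and 6 lower, with a log2 difference beyond 0.5 either way and adjusted p below 0.05 (limma on log2(normalized count + 1), Benjamini-Hochberg adjustment over 16516 genes). Of all genes tested, 11.3% passed (5.75% higher and 5.59% lower), but of the 2408 genes listed with a symbol in the CTRL table, to which these genes belong, 52.2% passed. Unc5d was not tested, since it reached the mean of 10 through the high CHIR libraries alone. The median difference of the 13 genes was -0.61, with 6 above 0 and 7 below, beside a median of 0.0018 over all genes.

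**Figure D1:**
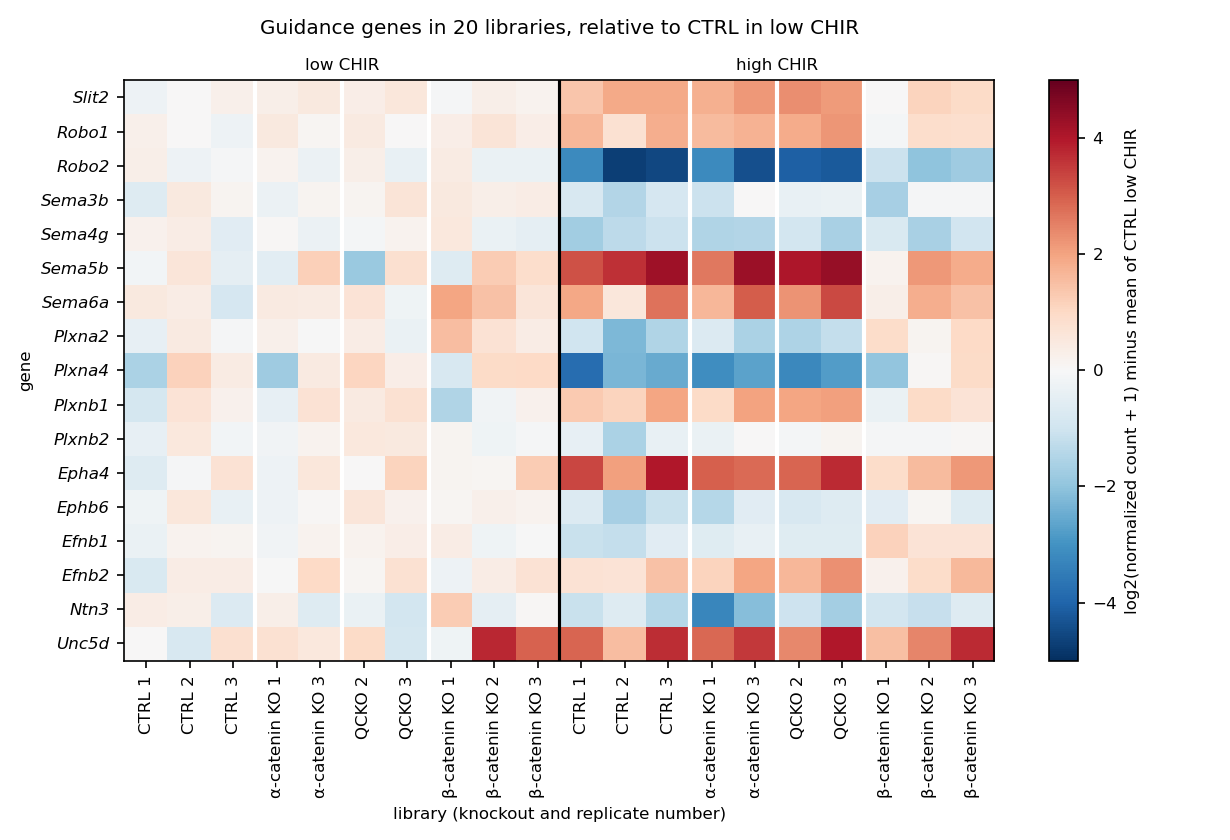
Log2(normalized count + 1) of the 17 guidance genes in each of the 20 libraries, shown as the difference from the mean of the 3 CTRL libraries in low CHIR (colour scale, log2 units; rows are genes, columns are libraries by knockout and replicate number, low CHIR left and high CHIR right of the black line). In high CHIR, Slit2, Robo1, Sema5b, Sema6a, Plxnb1, Epha4, Efnb2 and Unc5d are red and Robo2 and Plxna4 blue in CTRL, α-catenin KO and QCKO, with paler colours for Robo2, Sema5b, Epha4 and Slit2 in β-catenin KO.

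The plot of all libraries shows the low CHIR columns of CTRL, α-catenin KO and QCKO close to the reference for most genes, and the high CHIR columns of these 3 groups alike. The high CHIR columns of β-catenin KO are paler, and the Efnb1 row changes from blue to red there. Unc5d is red in low CHIR in β-catenin KO replicates 2 and 3, the libraries with raised Wnt4.

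Slit2, the secreted ligand of the Robo receptors, rose about 3-fold. In the adhesion KOs it stood in low CHIR at 527 and 612 in α-catenin KO and 543 and 641 in QCKO, and in high CHIR at 1475 and 1959 in α-catenin KO and 2185 and 1914 in QCKO. Every high CHIR library lay above every low CHIR library. The ratio of the means was 3.24 and the fitted log2 difference 1.69 ± 0.17 (SE, adjusted p = 3.12e-05, n = 4 against 4). In CTRL, by which it was chosen, it stood at 360, 437 and 510 in low and 1136, 1597 and 1597 in high CHIR.

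The 2 Slit receptors went in opposite directions. Robo1 stood at 693 and 527 in α-catenin KO and 663 and 500 in QCKO in low CHIR, and at 1485 and 1642 in α-catenin KO and 1766 and 2301 in QCKO in high CHIR. It rose by a log2 difference of 1.59 ± 0.23 (adjusted p = 0.000469), with no overlap between the CHIR conditions. Robo2 stood at 6573 and 4741 in α-catenin KO and 7138 and 4497 in QCKO in low CHIR, and at 648 and 278 in α-catenin KO and 345 and 323 in QCKO in high CHIR. The high CHIR libraries all lay far below the low CHIR ones, the means differed 14.4-fold, and the log2 difference was -3.90 ± 0.34 (adjusted p = 9.29e-06). The CTRL libraries, which chose both genes, gave Robo1 at 579, 494 and 414 in low and 1538, 832 and 1716 in high CHIR, and Robo2 at 7266, 4966 and 5624 in low and 637, 222 and 251 in high CHIR.

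Among the semaphorins, both members that rose span the membrane. Sema5b stood at 6.02 and 22.1 in α-catenin KO and 1.73 and 16.4 in QCKO in low CHIR, down to 2 recovered reads, and at 60.5 and 194 in α-catenin KO and 165 and 201 in QCKO in high CHIR. The conditions did not overlap, and the log2 difference was 3.92 ± 0.59 (adjusted p = 0.000695). Sema6a, a known ligand of Plxna2 and Plxna4, stood at 260 and 253 in α-catenin KO and 300 and 160 in QCKO in low CHIR, and at 603 and 1546 in α-catenin KO and 890 and 1868 in QCKO in high CHIR. It rose by 2.23 ± 0.48 on the log2 scale (adjusted p = 0.00848), and replicate 3 was the highest library in both knockouts.

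Sema4g, another transmembrane semaphorin, fell. It stood at 126 and 97.6 in α-catenin KO and 114 and 138 in QCKO in low CHIR, and at 42.5 and 43.4 in α-catenin KO and 62.8 and 38.3 in QCKO in high CHIR, without overlap. The log2 difference was -1.34 ± 0.28 (adjusted p = 0.00629). Sema3b, of the secreted class, was the 1 gene of the 13 that did not pass, with a log2 difference of -0.61 ± 0.30 (adjusted p = 0.242). It ranged from 169 to 326 in low and from 96.6 to 208 in high CHIR in the adhesion KOs, so that the conditions overlapped. In CTRL the 4 semaphorins were chosen with log2 differences of 3.69 ± 0.68 for Sema5b, 1.74 ± 0.55 for Sema6a, -1.38 ± 0.32 for Sema4g and -1.03 ± 0.35 for Sema3b.

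Among the plexins, the semaphorin receptors, both class A members fell. Plxna4 stood at 31.0 and 147 in α-catenin KO and 226 and 137 in QCKO in low CHIR, and at 11.6 and 16.1 in α-catenin KO and 10.9 and 15.0 in QCKO in high CHIR. It fell by 2.96 on the log2 scale (SE 0.61, adjusted p = 0.00647), and its low CHIR values spread widely, with the lowest in replicate 1. Plxna2 stood at 53.3 and 43.3 in α-catenin KO and 56.4 and 34.7 in QCKO in low CHIR, and at 27.1 and 14.1 in α-catenin KO and 14.5 and 18.7 in QCKO in high CHIR, with a log2 difference of -1.31 ± 0.36 (adjusted p = 0.0307). Replicate 1 was also the lowest CTRL library of Plxna4 in low CHIR, at 35.7 against 244 and 145.

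Plxnb1, known as a receptor of class 4 semaphorins, went the other way. It stood at 148 and 328 in α-catenin KO and 268 and 332 in QCKO in low CHIR, and at 385 and 789 in α-catenin KO and 781 and 831 in QCKO in high CHIR. The conditions did not overlap, and it rose by 1.37 ± 0.36 on the log2 scale (adjusted p = 0.0271). Its CTRL values, by which it was chosen, were 106, 316 and 229 in low and 491, 428 and 778 in high CHIR.

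Of the Eph receptors, Epha4 had one of the larger rises. It stood at 267 and 463 in α-catenin KO and 316 and 678 in QCKO in low CHIR, and at 2523 and 2235 in α-catenin KO and 2354 and 4172 in QCKO in high CHIR. The means differed 6.55-fold without overlap, and the log2 difference was 2.76 ± 0.42 (adjusted p = 0.00077). Its CTRL values spread more, from 201 to 519 in low and from 1313 to 5019 in high CHIR, with the lowest high CHIR value in replicate 2.

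Ephb6, an Eph receptor whose kinase domain is known to be inactive, and Efnb1, a transmembrane ligand of Eph receptors, fell. Ephb6 stood at 179 and 222 in α-catenin KO and 331 and 249 in QCKO in low CHIR, and at 79.9 and 146 in α-catenin KO and 122 and 137 in QCKO in high CHIR (log2 difference -1.01 ± 0.28, adjusted p = 0.036). Efnb1 stood at 272 and 346 in α-catenin KO and 350 and 388 in QCKO in low CHIR, and at 204 and 241 in α-catenin KO and 203 and 205 in QCKO in high CHIR (log2 difference -0.66 ± 0.19, adjusted p = 0.0441). Neither gene's conditions overlapped, but the fall of Efnb1 was the smallest among the genes that passed.

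Unc5d, a netrin receptor that also binds the membrane protein Flrt2, was scarce in low CHIR. It stood at 5.16 and 4.24 in α-catenin KO and 6.07 and 0.964 in QCKO in low CHIR, which are 1 to 7 recovered reads, and at 25.8 and 41.3 in α-catenin KO and 18.1 and 57.0 in QCKO in high CHIR. Over the 14 libraries without β-catenin KO it averaged 3.64 in low and 32.0 in high CHIR. A gene that enters through 1 condition alone has to differ between the conditions, so its values are a description.

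Leaving out 1 of the 8 libraries of the adhesion KOs left 8 to 10 of the 13 genes called. Slit2, Robo1, Robo2, Sema4g, Sema5b, Sema6a, Plxna4 and Epha4 passed in each of these fits. The call of Efnb1 was lost without any 1 of the 8 libraries (adjusted p up to 0.153). That of Ephb6 (up to 0.145) stayed only without α-catenin KO high CHIR replicate 3, that of Plxna2 (up to 0.128) only without α-catenin KO high CHIR replicate 1 or QCKO low CHIR replicate 3, and that of Plxnb1 (up to 0.127) only without α-catenin KO low CHIR replicate 3 or high CHIR replicate 1.

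Taken singly, each adhesion KO has 2 libraries a condition and fewer genes passed. In α-catenin KO, 4 of 15 genes passed (Slit2, Robo1 and Epha4 higher, Robo2 lower) beside 4.39% of all genes (2.4% higher and 1.99% lower) and 26.7% of those in the CTRL table. In QCKO, 6 of 13 passed (Slit2, Robo1, Epha4 and Sema5b higher, Robo2 and Plxna4 lower) beside 4.93% (2.62% higher and 2.31% lower) and 29.0%. With the date as a block, which compares libraries of a shared date, 8 genes passed in α-catenin KO and 9 in QCKO, beside 7.18% and 7.74% of all genes. For this and the other fits with the block, the higher share expected among genes in the CTRL table was not computed. Those in α-catenin KO were Slit2, Robo1, Robo2, Epha4, Sema5b, Plxna4, Plxnb1 and Efnb2, and those in QCKO were the first 7 of these with Sema6a and Efnb1. When a library was left out, a group held a single library. Fewer of these genes, and fewer of all genes, then passed in either knockout, whichever library was left out. The difference between the α-catenin KO and QCKO responses was not tested.

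Efnb2, an ephrin that like Efnb1 spans the membrane, passed in α-catenin KO under the block but not in the main test. It stood at 168 and 339 in low and 371 and 679 in high CHIR in that knockout, each replicate being higher in high CHIR (log2 difference 1.07 ± 0.49, adjusted p = 0.333, and 0.0332 with the block). Sema5b had a log2 difference of 3.10 ± 0.83 in α-catenin KO (adjusted p = 0.0573) and of 4.73 ± 0.83 in QCKO (adjusted p = 0.00487), both from few reads in low CHIR.

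**Figure D2:**
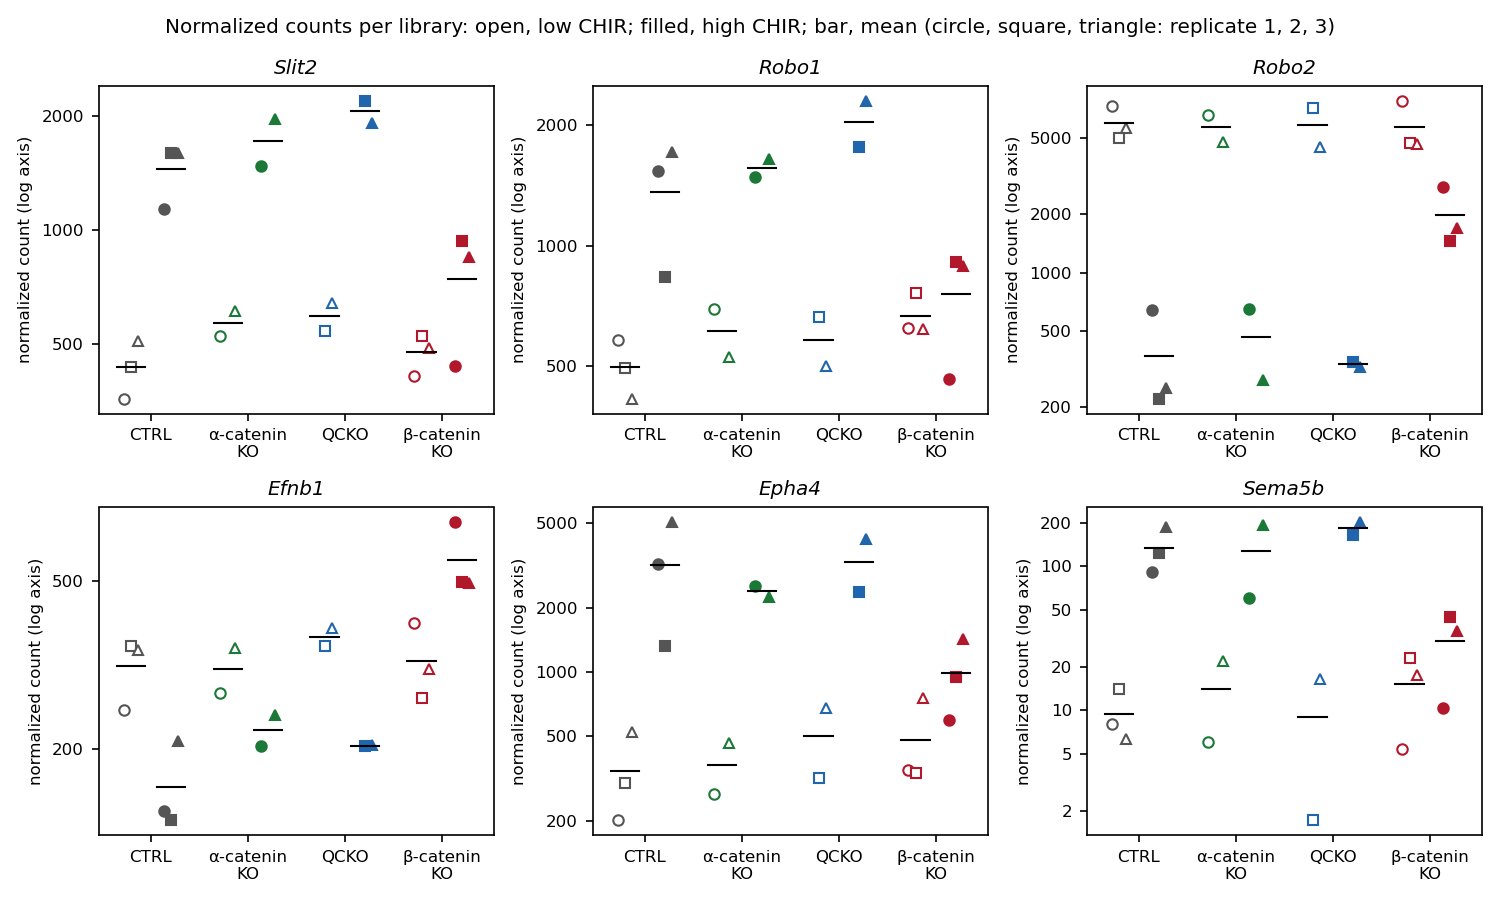
Normalized counts (log axis) of Slit2, Robo1, Robo2, Efnb1, Epha4 and Sema5b in each library by knockout, with open symbols for low CHIR, filled symbols for high CHIR, circles, squares and triangles for replicates 1, 2 and 3, and bars for group means. In high CHIR the 3 β-catenin KO libraries of Robo2 (1453 to 2787) and of Efnb1 (494 to 689) lie above those of all other groups, and those of Slit2 (438 to 935) below.

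CHIR stabilises β-catenin, and β-catenin KO asks which part of the response remains when β-catenin is targeted. The paper allows that CHIR may have off-target effects, which were not tested here. In β-catenin KO none of the 16 genes tested passed for high against low CHIR, Ntn3 being left out because it reached the mean of 10 through the low CHIR libraries alone. By limma, 3 of 16691 genes passed in all (0.018%, and 0.124% of those in the CTRL table), and 741 had an unadjusted p under 0.05. With the date as a block 1 member passed, Robo2 (log2 difference -1.54, adjusted p = 0.00636), beside 0.24% of all genes, as it did with DESeq2 on recovered reads (1 of the 16), and edgeR called 0.

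Robo2 in β-catenin KO stood at 7748, 4706 and 4627 in low and at 2787, 1453 and 1696 in high CHIR. Its within-date log2 differences of high from low CHIR were -1.48, -1.69 and -1.45, whereas in CTRL, α-catenin KO and QCKO the within-date differences ran from -4.48 to -3.34. Thus the levels of the knockouts were alike in low CHIR and parted in high CHIR.

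Efnb1 in β-catenin KO stood at 398, 264 and 309 in low and at 689, 497 and 494 in high CHIR, without overlap. Its difference within a date was 0.79, 0.91 and 0.68 on the log2 scale in β-catenin KO and was negative on every date in CTRL (-0.79, -1.36 and -0.71), α-catenin KO (-0.42 and -0.52) and QCKO (-0.79 and -0.92). The rise itself had an adjusted p of 0.516 (log2 difference 0.79 ± 0.22), and 0.229 with the block, so it did not pass.

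Slit2 and Robo1, which rose in the adhesion KOs, did not pass in β-catenin KO. Slit2 in β-catenin KO stood at 413, 526 and 489 in low and at 438, 935 and 849 in high CHIR (log2 difference 0.57 ± 0.25, adjusted p = 0.999). Robo1 stood at 622, 761 and 620 in low and 463, 911 and 889 in high CHIR (0.12 ± 0.28, adjusted p = 0.999). Without 1 of the 6 libraries, the Slit2 difference ran from 0.36 (without high CHIR replicate 2) to 0.91 (without high CHIR replicate 1) and that of Robo1 from -0.050 to 0.44. For both genes the conditions overlapped and replicate 1 was the lowest library in high CHIR.

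Epha4 in β-catenin KO stood at 347, 333 and 756 in low and 594, 944 and 1425 in high CHIR (1.06 ± 0.50, adjusted p = 0.999). Sema5b stood at 5.37, 23.0 and 17.6 in low and 10.4, 44.3 and 35.6 in high CHIR (0.91 ± 0.74, adjusted p = 0.999). Without 1 library the Sema5b difference ran from 0.33 (without low CHIR replicate 1) to 1.52 (without high CHIR replicate 1). Both were higher in high CHIR on each date, although the conditions overlapped across dates. Replicate 1 was the lowest β-catenin KO library of Epha4 and Sema5b in high CHIR, and Wnt4 was also lowest there, at 252 against 2387 and 1200.

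The other genes of the group differed between β-catenin KO libraries. Sema6a stood at 740, 520 and 287 in low and 231, 669 and 526 in high CHIR. Plxnb1 stood at 69.9, 175 and 232 in low and 155, 380 and 322 in high CHIR. It was higher in high CHIR on each date (log2 differences 1.14, 1.12 and 0.47), although the conditions overlapped across dates. Unc5d stood at 2.15, 48.0 and 27.2 in low and 9.24, 18.8 and 46.8 in high CHIR, so that replicates 2 and 3 in low CHIR were at the level that the other knockouts reached in high CHIR. These are the low CHIR libraries with raised Wnt4, whose part in the values was not tested.

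Of the genes that fell in the adhesion KOs, Plxna4 in β-catenin KO stood at 61.3, 213 and 216 in low and 26.6, 113 and 211 in high CHIR. Plxna2 stood at 129, 74.0 and 56.9 in low and 83.2, 48.8 and 87.6 in high CHIR. Sema4g (175, 95.0 and 87.3 against 70.5, 38.8 and 62.4) and Ephb6 (233, 256 and 245 against 146, 228 and 137) were lower in every high CHIR library. Sema3b, which did not pass in the adhesion KOs, was likewise lower in every high CHIR library of β-catenin KO (64.7 to 198 against 251 to 287, log2 difference -0.96). The plexin A conditions overlapped, and none of the genes in this paragraph passed.

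**Figure D3:**
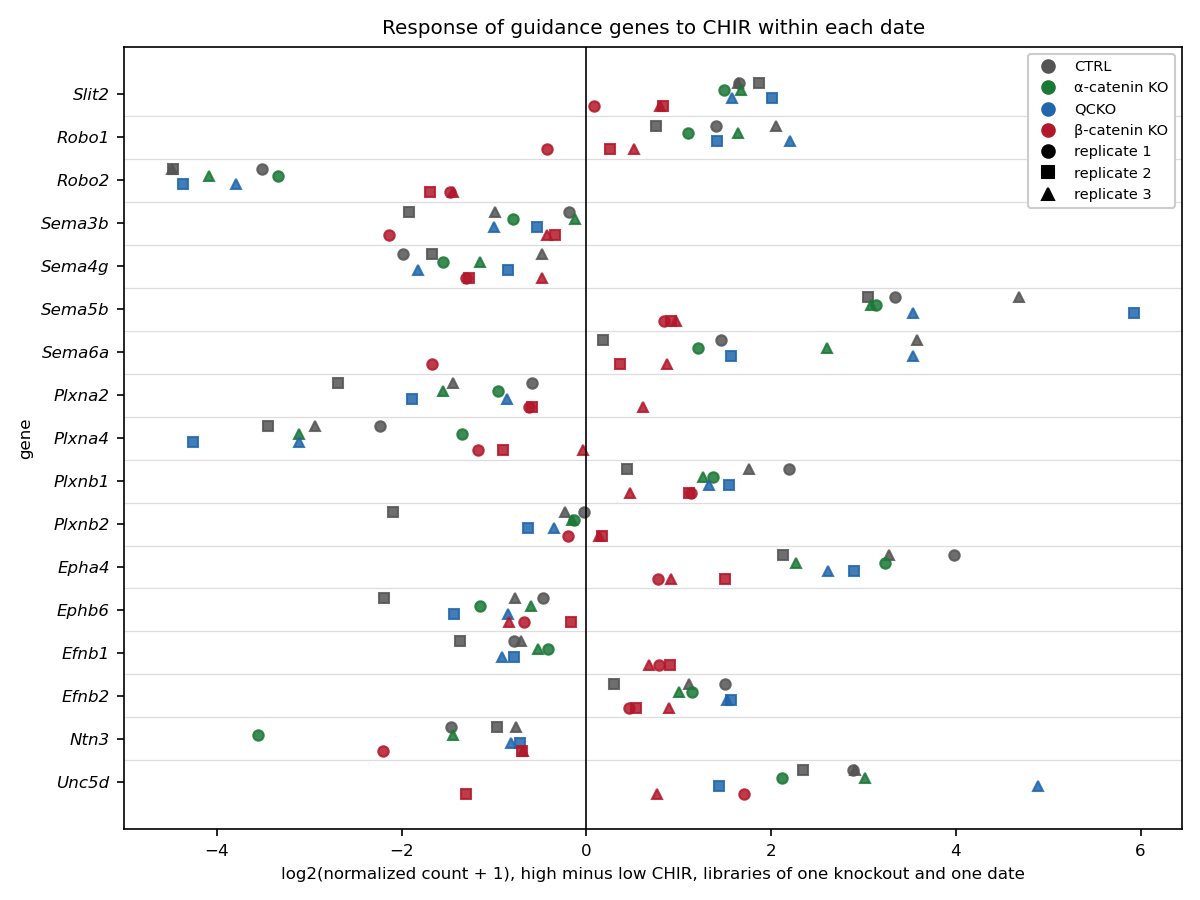
Difference in log2(normalized count + 1) between high and low CHIR for each guidance gene (rows), 1 symbol for each pair of libraries of a knockout and date, coloured by knockout with circles, squares and triangles for replicates 1, 2 and 3; the vertical line marks 0. The β-catenin KO symbols of Efnb1 lie right of 0 (0.68 to 0.91) and those of all other groups left of it, and the β-catenin KO symbols of Robo2 (-1.69 to -1.45) lie closer to 0 than the others (-4.48 to -3.34).

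The difference between the β-catenin KO response and the pooled adhesion KO response was tested directly, as an interaction. It passed for 2 of the 14 genes, both higher in β-catenin KO, beside 1.01% of all 16691 genes (0.677% higher and 0.336% lower) and 6.54% of the genes in the CTRL table. Unc5d, among the 14 and not called, reached the mean of 10 in low CHIR only through β-catenin KO (10.3 over 10 libraries, 3.64 over the 7 others). Its test here and in the β-catenin KO response therefore carries no weight. Efnb1 had a difference of response of 1.45 ± 0.29 (adjusted p = 0.0254) and Robo2 of 2.36 ± 0.52 (adjusted p = 0.0381). With the date as a block 6 passed, beside 3.13% of all genes, adding Slit2 (-1.12, adjusted p = 0.0112), Epha4 (-1.69, 0.036), Sema5b (-3.01, 0.0329) and Plxna4 (2.25, 0.0274). Single libraries decided the count. Leaving out replicate 2 or 3 of β-catenin KO in low CHIR, its replicate 1 in high CHIR, replicate 3 of α-catenin KO in low CHIR or any 1 of the 4 QCKO libraries left 0 called. Leaving out replicate 3 of β-catenin KO in high CHIR, replicate 1 of α-catenin KO in low CHIR or either α-catenin KO library in high CHIR left 1. The log2 values themselves stayed between 1.29 and 1.49 for Efnb1 and between 2.05 and 2.53 for Robo2 in the fits that lost the call.

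In high CHIR, where both kinds of knockout received the same signal, β-catenin KO differed from the adhesion KOs in 5 of the 14 genes, beside 5.76% of all genes (4.06% higher and 1.71% lower) and 24.3% of those in the CTRL table. Efnb1 was higher in β-catenin KO by 1.38 ± 0.21 on the log2 scale (adjusted p = 0.000766), Plxna2 by 1.92 ± 0.38 (0.00667) and Robo2 by 2.33 ± 0.36 (0.00105). Robo1 was lower by a log2 difference of -1.30 ± 0.26 (0.0073) and Slit2 by -1.41 ± 0.23 (0.00169). For each of these 5 genes the 3 β-catenin KO libraries and the 4 adhesion KO libraries did not overlap. The same held for Sema5b, Plxna4, Plxnb1 and Epha4, which did not pass. How many of all genes lack overlap was not counted, so this does not set the 5 genes apart. The sums of the progenitor markers (7581 to 15272 against 1132 to 1798) and of the ureteric markers (537 to 1027 against 1199 to 1988) did not overlap between these groups either, and their part in the differences was not tested. As a description, since CTRL libraries chose these genes, the differences of β-catenin KO from CTRL in high CHIR were 2.53 ± 0.39 for Robo2, 1.79 ± 0.22 for Efnb1, 2.25 ± 0.41 for Plxna2, -1.02 ± 0.25 for Slit2 and -0.85 ± 0.28 for Robo1 on the log2 scale. As ratios of means against the adhesion KOs, Robo2 was 4.96-fold, Plxna2 3.94-fold and Efnb1 2.63-fold higher, and Slit2 2.54-fold and Robo1 2.38-fold lower.

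Sema5b (-2.41 ± 0.69, adjusted p = 0.0502), Plxna4 (2.62 ± 0.76, 0.0524) and Epha4 (-1.55 ± 0.47, 0.0625) fell just outside the threshold in high CHIR. With the date as a block 9 of the 14 passed, beside 10.8% of all genes, these 3 and Plxnb1 (-1.21, 0.00499) beside the former 5. The call of Robo1 was lost when replicate 1 of β-catenin KO in high CHIR was left out (log2 difference -0.98, adjusted p = 0.051).

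In low CHIR none of the 17 genes passed between β-catenin KO and the adhesion KOs, in the main test or with the block. By limma, 24 of 16691 genes passed (0.144%, and 0.497% of those in the CTRL table), and 1731 had an unadjusted p under 0.05. With the block, 157 of the 16691 genes passed. DESeq2 and edgeR called 0 of the 17 as well. The log2 differences ran from -0.85 ± 0.46 for Plxnb1 to 1.83 ± 0.85 for Unc5d, and for Robo2 and Efnb1 they were -0.03 ± 0.36 and -0.08 ± 0.21. Plxna2 in low CHIR was higher in every β-catenin KO library (56.9 to 129) than in any adhesion KO library (34.7 to 56.4), with a log2 difference of 0.81 ± 0.38 (adjusted p = 0.483). Slit2 in low CHIR was lower in every β-catenin KO library (413 to 526) than in any adhesion KO library (527 to 641), with a log2 difference of -0.29 ± 0.23 (adjusted p = 0.707).

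A further 3 genes entered through the comparisons of an adhesion KO with CTRL in high CHIR, so their values in those groups are a description. Efnb2 in high CHIR stood at 287, 278 and 482 in CTRL and at 545 and 841 in QCKO, and at 371, inside the CTRL range, and 679, inside the QCKO range, in α-catenin KO. Plxnb2, a plexin of the same class as Plxnb1, stood at 1065, 480 and 1107 in CTRL and at 1343 and 1586 in QCKO. The CTRL value of 480 belongs to replicate 2, the library with the highest sum of normalized counts, and in low CHIR the same date gave 2047. Ntn3, a netrin, stood at 9.07, 12.8 and 7.05 in CTRL and at 1.29 and 4.03 in α-catenin KO, which are 1 and 4 recovered reads.

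**Figure D4:**
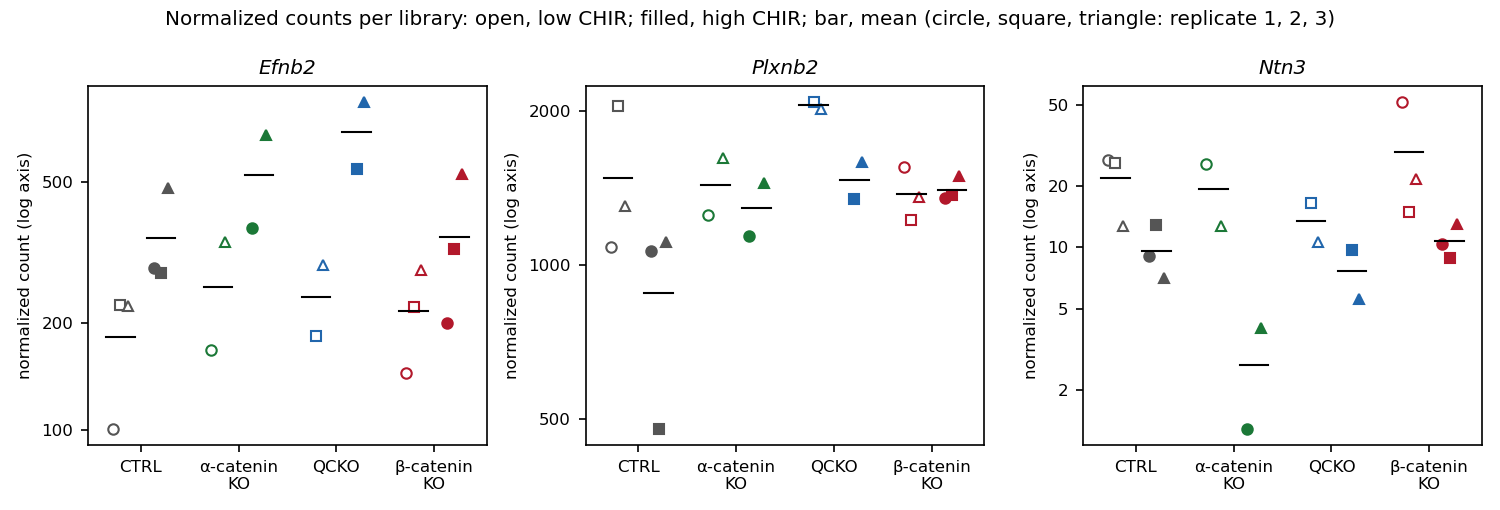
Normalized counts (log axis) of Efnb2, Plxnb2 and Ntn3 in each library by knockout, with open symbols for low CHIR, filled symbols for high CHIR, circles, squares and triangles for replicates 1, 2 and 3, and bars for group means. For Plxnb2 1 CTRL library in high CHIR (480) lies far below all others, and for Ntn3 the 2 α-catenin KO libraries in high CHIR (1.29 and 4.03) are the lowest.

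None of the β-catenin KO libraries took part in choosing these 3 genes. In them Efnb2 stood at 145, 223 and 283 in low and 200, 325 and 529 in high CHIR, higher on each date, with overlapping conditions (0.63 ± 0.43, adjusted p = 0.999). Without 1 library this ran from 0.28 (without high CHIR replicate 3) to 0.98 (without high CHIR replicate 1). Ntn3 stood at 51.6, 15.0 and 21.6 in low and at 10.4, 8.87 and 13.0 in high CHIR, without overlap, as a description. Plxnb2 stayed between 1222 and 1553 in all 6 libraries (0.03 ± 0.28, adjusted p = 0.999).

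The adhesion KOs against CTRL in high CHIR are described without a test for the 14 genes of the CTRL table. Of these, 10 lay above CTRL in α-catenin KO and 13 in QCKO, all but Plxna4, with median log2 differences of 0.26 and 0.45, while over all genes 52.1% lay above CTRL in either knockout and the medians were 0.022 and 0.025. CTRL high CHIR replicate 2, the library with the highest sum, was the lowest of the 3 CTRL libraries for 10 of the 14 genes. Without it, 7 of the 14 lay above CTRL in α-catenin KO and 10 in QCKO, with medians of -0.018 and 0.21, beside 51.8% of all genes in either knockout. With all 3 CTRL libraries, the log2 differences of α-catenin KO from CTRL ran from -0.24 ± 0.76 for Sema5b to 0.61 ± 0.62 for Sema6a, and those of QCKO from -0.12 ± 0.79 for Plxna4 to 1.03 ± 0.62 for Sema6a. Slit2 was at 1475 and 1959 in α-catenin KO and 2185 and 1914 in QCKO, against 1136, 1597 and 1597 in CTRL, so that the QCKO libraries lay above the CTRL range. Both comparisons use the same 3 CTRL libraries.

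Other genes of the guidance pathways were taken from a list of co-receptors and of signal transducers. The list called transducers also holds growth factors, Vegfa and Vegfc among them. Of 22 co-receptors 11 had an identifier, and of 44 transducers 13 did. In the pooled adhesion KOs, over genes not chosen by an adhesion KO comparison, 1 of 5 co-receptors rose and 1 fell, with a median log2 difference of -0.67, beside the 11.3% of all genes and 52.2% of genes in the CTRL table that passed. Flrt2, a membrane ligand of Unc5 receptors, rose by 0.73 ± 0.17 (adjusted p = 0.0153), while the glypican Gpc3 had a difference of -1.03 ± 0.17 (0.00122). Of 8 transducers 1 rose and 3 fell, with a median of -0.74. The growth factor Vegfc rose by 5.66 ± 0.31 (2.75e-07), and differences of -0.76 ± 0.20 (0.0233) for the Slit-Robo GTPase-activating protein Srgap2, -3.11 ± 0.43 (0.000362) for the chimaerin Chn2, a GTPase-activating protein for Rac, and -0.82 ± 0.23 (0.0331) for Arhgef12, which binds plexin B receptors, were measured.

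Between β-catenin KO and the adhesion KOs, the difference of response passed for 0 of 6 co-receptors and for 2 of 8 transducers, Chn2 (2.95 ± 0.61, adjusted p = 0.028) and Vegfc (-4.50 ± 0.84, 0.0155), beside 1.01% of all genes and 6.54% of those in the CTRL table. In high CHIR, where these shares were 5.76% and 24.3%, 1 co-receptor of 7, Flrt3 (1.65 ± 0.29, 0.00267), and 2 of 8 transducers, Chn2 (2.21 ± 0.43, 0.00565) and Srgap3 (1.19 ± 0.33, 0.0421) were higher in β-catenin KO, and 1 transducer, Vegfc, was lower (-3.43 ± 0.59, 0.00262). None of 9 co-receptors and 13 transducers passed for the CHIR response of β-catenin KO, nor any of 10 and 13 between the knockouts in low CHIR. As with the 17 genes, all of them carry a symbol only because a deposited comparison table lists them.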

How the data were processed

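Messenger RNA of sorted NPCs was sequenced by the authors as paired-end reads. The submitters' processing notes name bcl2fastq, STAR, Subread, featureCounts, Salmon and DESeq2 and the builds GRCm38, GRCh38 and mm10, without their roles, and whether strand was counted is not given in the sources used here. The deposited signal values are reads per gene after the authors' division by a size factor for each library. In 18 libraries the values are whole multiples of 1 step within 0.02 reads, so reads were recovered for the count-based tools. In the other 2 (replicate 2 of β-catenin KO in low CHIR, replicate 3 of α-catenin KO in high CHIR) the step is so near 1 that this says less. The authors' comparison tables hold fold changes and p-values, of which none was used, and their pairing of identifiers with symbols, which was.

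Members, gene lists and tests were chosen with earlier results of these data known. Log2(normalized count + 1) was fitted with limma 3.58.1 in R 4.3.3 (1 mean a group, eBayes with trend, genes with a mean of at least 10, Benjamini-Hochberg adjustment over all genes). Contrasts without β-catenin KO used 14 libraries and the others 20. Calls needed an adjusted p below 0.05 with a log2 difference beyond 0.5 in either direction. Every member was named, with all library values for those called. No CHIR response was tested for a gene whose mean was below 10 in either CHIR condition of the fit, among the 17 Unc5d in the fit of 14 libraries and Ntn3 in both, a choice made after seeing the data; counts over all genes keep such genes. The fits were tested on simulated data.

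Alternatives were no filter on low values, pseudocounts of 0.25 and 5, quantile normalization, other libraries in the fit, the date as a block, edgeR 4.0.16 and DESeq2 1.42.0 on the recovered reads, and fits without 1 library. The description of the adhesion KOs against CTRL without CTRL high CHIR replicate 2 was added after seeing the data. The labels pair libraries of 1 date, and deviations from group means correlated at 0.02 to 0.72 (median 0.20) in 58 such pairs, with a median of -0.11 in 116 pairs of different dates. Deviations within a group cancel, so the values for different dates follow in part from those for shared dates and are no separate evidence. All 17 members matched RefSeq by gene number.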

Additional observations from a re-analysis of the deposited data

Results flagged for a closer look

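In 2 of the 14 genes tested the response to CHIR differed between β-catenin KO and the adhesion KOs by a test of the difference itself. Of all genes 1.01% passed, and 6.54% of those in the CTRL table. Each of the 2 calls was lost in some fits without 1 library. With the date as a block 6 genes passed, beside 3.13% of all genes. For Efnb1 the difference of response was 1.45 on the log2 scale (SE 0.29, adjusted p = 0.0254), with a rise on 3 of 3 dates in β-catenin KO and a fall in 4 of 4 pairs of the adhesion KOs. For Robo2 it was 2.36 (SE 0.52, adjusted p = 0.0381), with a fall in every pair and a smaller one in 3 of 3 pairs of β-catenin KO. Groups of 2 or 3 libraries were too small for a test of single outlying values.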

How the results depend on the processing

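For the pooled adhesion KOs, 8 to 12 of the 13 genes were called under every alternative. With the date as a replicate block, 8 genes were called in α-catenin KO (4 without it), 9 in QCKO (6), 1 in β-catenin KO (0), 6 for the difference of response (2) and 9 between knockouts in high CHIR (5). The counts of members for the pooled adhesion KOs and in low CHIR stayed the same. Over all genes these 2 rose with the block, to 2549 from 1874 (pooled) and to 157 from 24 (low CHIR). With DESeq2 the counts were 8 in α-catenin KO, 1 in β-catenin KO, 4 for the difference and 9 in high CHIR, and with only the groups compared 11 in QCKO. The share of all genes called is not given for these settings, so these counts cannot be set beside it. Leaving out 1 library gave 2 to 3 in α-catenin KO, 2 to 5 in QCKO and 0 to 2 for the difference. The cause of these changes was not tested. Over all genes, called numbers ran from 1222 to 2584 (pooled), 281 to 1186 (α-catenin KO), 368 to 1855 (QCKO), 0 to 57 (β-catenin KO), 75 to 522 (difference), 494 to 1798 (high CHIR) and 0 to 361 (low CHIR).

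Differences that changed sign were all uncalled. In the β-catenin KO response, Plxnb2 went to -0.0082 with quantile normalization, and Unc5d to -0.037 with edgeR and -0.043 with DESeq2. Without 1 library the β-catenin KO response ran from -0.52 to 0.31 for Sema6a, -0.46 to 0.13 for Plxna2, -1.35 to 0.13 for Plxna4, -0.050 to 0.12 for Plxnb2, -0.050 to 0.44 for Robo1 and -0.80 to 1.18 for Unc5d. For Sema3b the difference of response ran from -0.62 to 0.18 and the high CHIR difference from -0.41 to 0.39. Depth limits Unc5d, Ntn3 and Sema5b, which have few reads in some groups.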
